A study of Homo sapiens with 4 samples.

Results

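A microRNA array that, per the labels, covered 474 human miRNAs also carried 223 probes named for mouse or rat miRNAs. These probes were read here in a human prostate cancer line. They were chosen by name alone: a probe belonged when its name began with the mouse or rat tag and miR or let and carried no mismatch tag. They make up 223 of the 1406 probes on the array, 167 mouse and 56 rat. A human probe of the same name existed for 99 of them and not for the other 124. The cells were LNCaP, a long-established prostate cancer line of human origin whose growth responds to androgen. All 4 groups first spent 24 hours without androgen, in medium whose 10% serum had been stripped with charcoal. R1881, a synthetic androgen, was then given at 0, 0.1, 1 or 10 nM, with 1 array per dose and no replicates. The line is 1 cultured tumour line, the labels do not state how long treatment lasted, and no value below has an error between cultures.

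A miRNA is a short RNA that guides an Argonaute protein to messenger RNAs, mainly through its seed, the bases from position 2 to 8. Many miRNAs were conserved between rodents and humans, so that a mouse probe can meet the same RNA in human cells, while others, such as the large miR-466, miR-467 and miR-669 families that in mouse lie in an intron of Sfmbt2, expanded in rodents. A name with an asterisk is an older label, given to the arm of a precursor that was taken to be the less abundant one.

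The human miRNAs below carry the names of the rodent probes on which the results turn. They are RefSeq sequences of build GRCh38.p14, written 5′ to 3′ with the seed in capitals. All 15 names looked up were matched. Rodent sequences and probe sequences were not used here, so how far a rodent probe matches the human RNA was not read. The first pair shares the let-7 seed and differs at 1 of 22 positions, G12A, counted from the 5′ end. The next 3 share the seed of the miR-17 family, and the rest each have a seed of their own.
let-7a: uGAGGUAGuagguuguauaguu
let-7f: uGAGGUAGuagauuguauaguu
miR-106a: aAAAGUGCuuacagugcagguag
miR-20b: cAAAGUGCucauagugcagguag
miR-93: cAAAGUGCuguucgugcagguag
miR-99a: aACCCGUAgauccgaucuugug
miR-203: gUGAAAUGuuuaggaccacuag
miR-431: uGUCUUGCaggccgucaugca
miR-494: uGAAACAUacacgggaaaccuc
miR-140-3p: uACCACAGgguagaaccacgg
let-7d-3p: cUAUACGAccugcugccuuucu

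Human let-7f is encoded at 2 loci. One, at chr9:94176353-94176374, lies beside a let-7a copy at chr9:94175962-94175983, both in the bounds of MIRLET7A1HG. Human miR-99a lies at chr21:16539101-16539122, within the bounds of the host transcript MIR99AHG. Human miR-20b and miR-106a lie at chrX:134169850-134169872 and chrX:134170244-134170266 in the bounds of MIR106AHG, and miR-93 lies at chr7:100093815-100093837 in the bounds of MCM7, which encodes a helicase subunit. The imprinted miR-431 and miR-494 lie on chromosome 14, at chr14:100881026-100881046 and chr14:101029681-101029702. Whether each interval is exonic or intronic was not looked up.

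Signal was read as net signal, the array's mean intensity for a probe minus the median of that array's 604 mismatch probes, which are copies with 2 mismatched bases. A probe was called detected when its signal exceeded the median of the mismatch probes plus 3 scaled median absolute deviations, with mismatch probes listed at 0 left out of that threshold. In net signal the threshold stood at 147 for the untreated array and at 151, 139 and 144 for 0.1, 1 and 10 nM. Of the 223 rodent probes, 31 were detected on at least 1 array, 15 on all 4, and 192 on none. The median net signal over all 223 was 7.75, 39.75, 15 and 29.5 in order of dose. Most rodent probes thus lay below the threshold on every array.

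The untreated array detected 20 of the 223 rodent probes, or 8.97%, beside 0.667% of the mismatch probes and 13.6% of the 455 human probes. The lowest dose, 0.1 nM, gave 18 of 223, or 8.07%, beside 0.503% and 10.3%. With 1 nM the count was 21, or 9.42%, beside 1.16% and 13.4%. With 10 nM it reached 27, or 12.1%, beside 2.68% and 16.3%. At this threshold the 10 nM array thus detected the most rodent, human and mismatch probes alike. With the 95th percentile of the mismatch probes as threshold, it no longer led for rodent probes, as given below. The part that the rise in mismatch calls has in the dose counts was not tested. The viral and worm probes of the same arrays were detected in 2, 0, 2 and 9 of 107 cases.

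Among the 99 probes with a human namesake, 11, 9, 12 and 14 were detected in order of dose, and 14 on at least 1 array. Among the 124 without one, the counts were 9, 9, 9 and 13, and 17 on at least 1 array. The share detected was 11.1%, 9.09%, 12.1% and 14.1% with a namesake and 7.26%, 7.26%, 7.26% and 10.5% without one. On any array it was 14.1% and 13.7%, and on all 4 arrays it was 9 of 99 and 6 of 124 probes. The share with a namesake was the higher one on each array and the margin on any array was narrow, and no test was made. By species, 26 of 167 mouse probes and 5 of 56 rat probes were detected on any array. On the untreated array the shares were 8.98% and 8.93%. Among probes with a namesake they were 13% of 69 mouse and 6.67% of 30 rat probes. Among those without one they were 6.12% of 98 and 11.5% of 26.

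The let-7 family is known for holding back proliferation and RAS signalling. Its mouse let-7a and let-7f probes kept net signals of 0.978 to 1.25 times untreated. Over match probes, the miRNA probes of all species without mismatches, this ratio had a median of 0.676, 0.987 and 1.09. That median is in order of dose, over those detected on both arrays compared. The mouse let-7a probe had net signals of 3794.5, 3709.75, 4113 and 4752.25 at 0, 0.1, 1 and 10 nM, and the human let-7a probe had 5288, 5341.75, 5384.5 and 5975.25. The mouse let-7f probe had 2158.5, 2170.5, 2326 and 2204.75, and its human namesake 2562.25, 2092, 2691.25 and 3104.5. Both mouse probes were bright on every array, and their own mismatch probes stayed below the array median, at -39.25 or less. The third rodent let-7 probe, let-7d*, is described with the names that had no human probe.

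The mouse probe of miR-99a, a relative of miR-100 described as targeting mTOR, varied widely over the arrays. It had net signals of 4625.5, 1259.75, 3386.25 and 4750.5 in order of dose. The human miR-99a probe had 9827.75, 5446.75, 8887.5 and 10013.25. Both were lowest at 0.1 nM, where the mouse probe held 0.272 of its untreated net signal and the human probe 0.554 of its own. The median of this ratio over match probes detected on both arrays was 0.676.

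Of the miR-17 seed group, known for promoting cell cycle entry, mouse miR-106a had net signals of 512.25, 208.5, 594 and 842. Human miR-106a had 784, 807, 1182.25 and 998, so the human probe did not share the low value at 0.1 nM. Mouse miR-20b ran 397.25, 257, 555.75 and 717.5, and human miR-20b 470.25, 312.75, 576.25 and 612.5. Over match probes detected on both arrays, the median net ratio to untreated was lowest at 0.1 nM and highest at 10 nM. These 2 miR-20b probes followed the same order as each other, also lowest at 0.1 nM and highest at 10 nM. Rat miR-20b was dimmer, at 210.75, 119.25, 237.75 and 332, in the same order and not detected at 0.1 nM. Mouse miR-93 varied little, at 358.25, 310.25, 353.75 and 389.75, beside 240.5, 271.25, 296.75 and 340.5 for the human probe.

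The mouse probe of miR-221, a repressor of CDKN1B (p27), stood at a net 309, 246.5, 262 and 245. Its human namesake had 211.5, 209 and 204 at the 3 treated doses, and both were highest in untreated cells. Mouse miR-324-5p stood at 268.75, 196.75, 273.5 and 268, and human miR-324-5p at 172, 116.75, 184 and 204, the human probe missing the threshold at 0.1 nM. Rat miR-422b stood at 200.75, 163.75, 168 and 189.5, little above the threshold on each array, and human miR-422b at 188.25, 164.75, 134.75 and 153.5.

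The remaining namesakes were detected on some arrays only. Mouse miR-203, of an epithelial miRNA that represses the stem cell factor p63, had net signals of 103, 35.25, 176.25 and 245.5 and passed the threshold at 1 and 10 nM, while the human probe passed on all 4 at 467.25, 344, 570.5 and 503.75. Mouse miR-494, of the imprinted DLK1-DIO3 cluster, had 7.75, -47.5, 127 and 391.5 and was detected at 10 nM alone. Human miR-494 had 116.25, 71.5, 493.75 and 798.75 and was detected at 1 and 10 nM. For both names the human probe was detected on more arrays than the mouse probe.

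For 2 names of the same imprinted cluster the mouse probe gave signal and the human probe did not. Mouse miR-431 had net signals of 230.75, 115.5, 185 and 290.5 and was detected on every array but that at 0.1 nM. Human miR-431 had -30.25, -7.25, -56.25 and -27.75. Mouse miR-134 had 90.75, 77.75, 109.25 and 168.25, detected at 10 nM alone, and human miR-134 had 9, -16.25, 2.75 and 50.75. The mismatch probe of mouse miR-134 was brighter than its match probe at 1 and 10 nM, at 168.25 and 222.75. Mouse miR-431 has no mismatch probe on the array. Of 37 rodent probes fixed as this cluster by their numbers, these 2 and miR-494 were detected, and of 40 human probes miR-494 alone. Over all rodent probes 13.9% were detected on any array, and over all human probes 17.6%.

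Across the 99 namesake pairs, the rodent and the human probe were both detected in 10, 8, 10 and 12 pairs in order of dose, and neither was in 86, 88, 86 and 84. The rodent probe alone was detected in 1, 1, 2 and 2 pairs, and the human probe alone in 2, 2, 1 and 1. The discordant pairs were those named above, with rat miR-422b at 1 nM, together with rat miR-497 on the untreated array and mouse miR-383 at 10 nM, where the human probe alone passed. Thus 96 of the 99 pairs had the same call on each array. The 99 pairs rest on 91 human probes, since some names have both a mouse and a rat probe.

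In 7 pairs both probes were detected on all 4 arrays: the mouse probes of let-7a, let-7f, miR-106a, miR-20b, miR-221, miR-93 and miR-99a. The mouse net signal as a share of the human one had a median over the pairs of 84.2%, 82.2%, 86.4% and 84.4% in order of dose. The mouse probe was the dimmer one in 6, 4, 5 and 4 of the 7 pairs. These are properties of pairs of probes and not levels of the miRNA. On normalised log2 levels, among 11 pairs with either probe detected on all arrays, the largest median gaps were those of miR-99a at -1.41, miR-203 at -1.24, rat miR-20b at -0.90, miR-106a at -0.58 and let-7a at -0.35. The smallest were 0.08 for rat miR-422b, -0.12 for mouse miR-20b and 0.13 for miR-93.

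Of names without a human probe, 6 were detected on all 4 arrays. The mouse miR-467b probe had net signals of 800.5, 233.25, 1160.25 and 1649, and miR-467a had 596, 231, 698.75 and 812.25. Mouse miR-669c had 313, 178.5, 296 and 418.5. Each of these 3 was lowest at 0.1 nM and highest at 10 nM. The median net ratio to untreated over match probes detected on both arrays was 0.676 and 1.09 at these doses. Over all 785 match probes, most of them undetected, the median net signal was 12.5, 35.25, 14.25 and 29.75 in order of dose, highest at 0.1 nM. All 3 names, miR-467b, miR-467a and miR-669c, belong to the families expanded in an intron of mouse Sfmbt2. No human gene of these numbers was found in the RefSeq gene table for GRCh38.p14.

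Mouse miR-706 had 807.5, 446, 508.75 and 665.25, highest in untreated cells. Rat miR-352 had 449.5, 308.75, 410.75 and 461.25. Rat miR-151*, a number that human MIR151A and MIR151B also carry, had 251.5, 183.5, 224.75 and 235.25. These 3 probes were lowest at 0.1 nM. The median net ratio to untreated over match probes detected on both arrays was also lowest there, at 0.676.

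A further 11 probes without a human namesake passed the threshold on 1 to 3 arrays. Mouse miR-709 had net signals of 142, 87, 385 and 717, detected at 1 and 10 nM. Mouse miR-703 had 146.5, 126, 186.75 and 217.75, detected at the same doses, and miR-468 had 155, 144, 183.5 and 264.75, detected on all but the 0.1 nM array. Of these 3, miR-709 stood furthest above the threshold at 1 and 10 nM.

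Both probes of miR-140*, the arm written miR-140-3p in RefSeq, were brightest in untreated cells. The rat probe had 205.25, 187.5, 128.75 and 122 and was detected at 0 and 0.1 nM, and the mouse probe had 159.5, 127.5, 91 and 96 and was detected in untreated cells alone. Both were lower at 1 and 10 nM than at 0 and 0.1 nM in net signal. Detected at 0.1 nM alone were mouse let-7d*, at 27.5, 175, 55.75 and 39, and mouse miR-692, at 27.5, 199.75, 48.75 and 42.5.

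Detected at 10 nM alone were 4 mouse probes. That of miR-705 had 70, 20.5, 108.25 and 249.5, and that of miR-713 had -80.25, -44.5, -13.25 and 219.5. That of miR-678 had 49, 51.75, 86 and 160.5, and that of miR-129-5p 76.5, 100.5, 113.5 and 164.25, the last 2 little above the threshold. The mismatch probe of miR-129-5p was brighter than its match probe in untreated cells and at 0.1 nM, at 161 and 131.5.

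A human gene of the same number was found in the RefSeq gene table for 38 of the 124 probes without a human namesake. Of these 38, 5 were detected on any array, and of the other 86, 12 were. The shares were 13.2% and 14%. A shared number does not make the sequences alike, and the table was searched by number only.

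By lists of numbers, 4 of 12 probes of the miR-297, miR-466 to miR-469 and miR-669 group were detected, miR-467a, miR-467b, miR-468 and miR-669c. The other 8, among them miR-466, miR-467*, miR-669a and miR-669b, were not. Of 44 mouse probes numbered from miR-673 to miR-722, 7 were detected, of which miR-706 alone passed on every array. None of the 10 probes of the miR-290 to miR-295 cluster, a mark of mouse embryonic stem cells, passed, with net signals between -55.75 and 98.75. None of 5 probes of the X-linked testis cluster passed either, at -56.75 to 82.25. A further list took miR-20b, miR-207, miR-421 and some numbers from miR-327 to miR-352. Of its 20 mouse and rat probes, 3 passed, those of mouse and rat miR-20b and rat miR-352. Human probes exist for 4 of these numbers, and that of miR-20b was detected on all 4 arrays. Over all 785 match probes, 120, or 15.3%, were detected on any array.

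The labelled cell type was read against marker miRNAs. Of 7 human epithelial markers, 5 were detected, miR-141, miR-200a, miR-200b, miR-200c and miR-203, while miR-205 and miR-429 were not. Of 2 rodent ones miR-203 was detected, while rodent miR-429 was not. None of 7 blood, 4 muscle, 3 liver and 5 neuron markers was detected on the human probes, and none of the 3, 1, 1 and 3 rodent probes of these markers. Among the 6 markers of stroma and endothelium, human miR-214 alone passed, at 10 nM. The summed net signal of those 6 was 72.5, 180.25, 109.5 and 497.5 in order of dose, and its part in the 10 nM signals was not tested.

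Specificity could be read for 76 mouse probes that have a mismatch copy of their own. Over these, the match probe was brighter than its copy in 30 of 76 on the untreated array, 51 of 75 at 0.1 nM, 38 of 76 at 1 nM and 37 of 75 at 10 nM. As a set, match probes were not regularly brighter than their copies, but most of the set was undetected. Undetected probes numbered 69, 68, 69 and 66 in order of dose, and 23, 44, 31 and 29 of these were brighter than their copies. Of the 11 detected members with a copy, mouse let-7a, let-7f, miR-106a, miR-20b, miR-203, miR-221, miR-324-5p and miR-140* were brighter than their copies on all 4 arrays. Mouse let-7d* and miR-129-5p were brighter than their copies on the array that detected them, and miR-134 was not. The copy of miR-221 stood at 119.5, 100.5, 21.25 and 8.25, so that 189.5 of the 309 untreated net signal lay above it. The other 20 detected members, all rat ones among them, have no copy, so their match signal could not be set against one.

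To compare doses, signals were background corrected, set on the log2 scale and quantile normalised over the match probes of all species. A ratio is the normalised log2 level at a dose minus that in untreated cells. With 1 array against 1, a count past 2-fold has no test. Without replicates, the counts at 0.1 and 10 nM cannot be told apart from array noise. On simulated arrays, unchanged probes also passed 2-fold, at shares near those of the rodent probes counted at these doses. The simulated noise was set and not measured, and its changes lay at 10 nM alone, so those shares do not estimate the noise here. Quantile normalisation gives equal ranks equal levels, so a bright probe at a ratio of 0.00 held its rank, whatever its net signal did. Where changes go mostly one way, it also understates them.

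At 0.1 nM, 22 rodent probes were detected on that array or the untreated one. Of these, 2 were higher by 2-fold or more, let-7d* and miR-692. They were also the only ones higher among all 89 match probes so compared, or 2.25%. The untreated array did not detect either, so let-7d* was at least 1.38-fold higher and miR-692 at least 1.63-fold. Lower by 2-fold or more was 1, mouse miR-99a, at a log2 ratio of -1.18 or 2.26-fold, beside 6.74% of all match probes. Without background correction the counts were 0 higher and 1 lower. Without normalisation they were 1 higher and 4 lower, the 4 being miR-99a, miR-467b, miR-467a and miR-106a, and the median of all match probes moved by -0.58 on the log2 scale. Median centring gave 2 higher and 1 lower when taken over match probes detected on all 4 arrays, but 1 higher and the same 4 lower when taken over all match probes. MiR-99a was lower by more than 2-fold under each of these settings, while the count of lower probes depends on the scaling.

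Among the 16 rodent probes detected on both arrays at 0.1 nM, the lowest ratios after miR-99a were those of miR-467b at -0.71 and miR-106a at -0.46. The highest were mouse let-7f at 0.52, miR-221 at 0.46 and miR-93 at 0.42. Without normalisation these 3 stood at -0.01, -0.33 and -0.24, so their direction depends on the scaling. The net signal of the rodent probes detected on both arrays had a median ratio to untreated of 0.708, and 0.664 over the human probes. Human miR-99a, in contrast to the mouse probe, kept its rank, with a ratio of 0.00, and human miR-106a stood at 0.77. The gap between mouse and human ratios was -1.18 for miR-99a and -1.23 for miR-106a, the widest of the 7 pairs.

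At 1 nM, 0 of 23 rodent probes were higher by 2-fold or more, beside 1.09% of all match probes, human miR-494 alone. Lower by that much were 0 rodent probes, beside 0%. Among the 18 detected on both arrays, ratios ran highest for mouse miR-20b at 0.38, miR-467b at 0.38 and miR-106a at 0.20, and lowest for miR-706 at -0.62, miR-99a at -0.34 and miR-431 at -0.15. Mouse miR-709, not detected in untreated cells, was at least 1.77-fold higher after background correction. Its log2 ratio of 0.85 became 0.53 without that correction, a smaller change than this bound, and 1.01 with median centring over all match probes.

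At 10 nM, 3 of 29 rodent probes were higher by 2-fold or more, beside 5.13% of all match probes, and 0 were lower, beside 0.855%. They were miR-709, miR-494 and miR-713, and these 3 are among the 6 match probes behind the 5.13%. Human miR-494 is also among the 6, at a log2 ratio of 1.55, beside 1.75 for the mouse probe. None of these 3 mouse probes was detected in untreated cells. After background correction they were thus higher by at least 2.48-fold for miR-709, 1.59-fold for miR-494 and 1.06-fold for miR-713. Without background correction 0 reached 2-fold, with log2 ratios of 0.87, 0.91 and 0.91 in that order, and for miR-709 this is a smaller change than its bound. The untreated net signal of miR-709, 142, lay just under the threshold of 147.

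Among the 18 rodent probes detected on both arrays at 10 nM, ratios ran highest for miR-467b at 0.93, mouse miR-20b at 0.45 and miR-106a at 0.43, and lowest for miR-706 at -0.50, miR-221 at -0.37 and rat miR-151* at -0.26. The net signal of miR-467b was 2.06 times the untreated value. Human miR-20b and miR-106a stood at 0.07 and 0.16, and human miR-221 at -0.73. All 3 doses share the untreated array, so these ratios are not independent of each other.

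Over the 7 pairs detected throughout, the absolute gap between the log2 ratio of the mouse probe and that of its human namesake had a median of 0.37, 0.25 and 0.32 in order of dose. The widest gap was 1.23, for miR-106a at 0.1 nM. For 1 and 10 nM the widest gaps were 0.34 and 0.63, both for miR-99a.

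Several calls lay close to the threshold. On the untreated array, whose threshold was a signal of 519, the members just above it were mouse miR-468 at 526.5, mouse miR-140* at 531 and rat miR-422b at 572.25. Just below it were mouse miR-703 at 518, miR-709 at 513.5 and miR-187 at 513. All but miR-422b lay within the range from 513 to 531.

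The names with both a mouse and a rat probe numbered 13, and in 11 of these neither probe was detected on any array. The exceptions were miR-20b and miR-140*, whose values are given above. For miR-20b the mouse probe was the brighter on all 4 arrays, and for miR-140* the rat probe was.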

How the data were processed

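Each array's deposited table gives, per the file headers, 1 mean signal per probe, a linear intensity. How the image was read and whether background was removed is not stated there. Per the labels, 10 µg of total RNA was labelled with Cy3. The deposited value table holds the same intensity minus 371.5, 355, 295.75 and 280.25 in order of dose, each the array's median mismatch signal, and is filled from about 1.5 times that median upward.

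Background was corrected by normexp (offset 50), and the match probes were quantile normalised, in limma 3.58.1 under R 4.3.3, and summarised in Python 3.11.15. Where 1 array detected a probe, its level was set against the lowest level of a detected match probe on the other array, or the probe's own if higher, and written as at least N-fold. Probes listed at 0 were first kept in the background correction and then treated as missing, a change made after ratios had been seen; it moved miR-713 at 10 nM from 1.74 to 2.01 and no fold count. Median centring, an alternative, was first taken over all match probes and then over those detected on all 4 arrays, also after values had been seen; both are reported. The steps were tested on simulated data in 2 designs. The first raised every changed probe, and recovered their sizes poorly: quantile normalisation understated changes that went one way and shifted unchanged probes lower. The second, with raised and lowered probes in balance, was added after that outcome and recovered more. In both, some unchanged probes passed 2-fold. Fold counts carry these limits. The number of arrays limits the precision, and no test was made. Members, lists and the naming rule were chosen with earlier results of these data known. Named probes are all detected members, extremes of ratios and of pair gaps, those nearest the threshold, markers and list members; miR-383, miR-497 and undetected list members were named, and the printed sequences chosen, after their values were seen.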

Additional observations from a re-analysis of the deposited data

Results flagged for a closer look

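The mismatch probes of 3 mouse miRNAs passed the detection threshold on treated arrays and not on the untreated one. That of miR-134 had a net signal of 168.25 at 1 nM and 222.75 at 10 nM, beside 78 in untreated cells. That of miR-293, of the embryonic stem cell cluster, had 216.75 at 10 nM, beside 53, while its match probe stood at 62.75. That of miR-297b had 143.75 at 10 nM, beside 85, at the threshold of 144. The mismatch probe of miR-297 passed on all 4 arrays, and its match probe on none. That of miR-129-5p went the other way, passing on the untreated array alone, at 161. Mismatch probes of all kinds also passed more often as a set at the highest dose. Their share was 0.667% without R1881, then 0.503%, 1.16% and 2.68% as the dose rose. Of the 76 mouse mismatch probes, 2 passed without R1881, then 1, 2 and 4. Whether the 3 probes stand apart from this rise was not tested.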

How the results depend on the processing

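With the threshold at the median plus 5 scaled deviations, 5 probes with a human namesake were detected at 0.1 nM, and 2 without one at 0.1 nM and 8 at 10 nM. With the 95th percentile of the mismatch probes, 18, 17, 16 and 17 namesakes were detected in order of dose. Of the others, 16, 25, 14 and 19 were. At that threshold namesakes were most often detected in untreated cells and the others at 0.1 nM. The order of the doses in these counts thus depends on the threshold. The cells filled in the authors' table, mouse mismatch probes alone, zeros kept, a margin over the own mismatch probe and names matched by number left all 8 detection counts within 1.5 times. Of probes higher by 2-fold at 0.1 nM there were 0 without background correction, 0 detected on both arrays, 0 in the authors' table and 1 without normalisation. Lower ones numbered 4 without normalisation and in the authors' table, and 2 at 1.5-fold. At 1 nM, 1.5-fold gave 1 higher and 1 lower. At 10 nM, higher ones were 0 without background correction or on both arrays, and 5 at 1.5-fold. The authors' table gave 1, mouse miR-467b, which is not among the probes counted by the main setting. Median centring over match probes detected on all arrays, a set chosen after values had been seen, changed none of the 6 fold counts. Over all match probes, the set first used, it gave 1 higher and 4 lower at 0.1 nM and 1 higher at 1 nM. Zeros kept in the background correction, also first used, changed none of the 6. Centring over probes detected on all arrays moved the median of all match probes by 0.19 at 0.1 nM and 0.11 at 10 nM, and centring over all match probes by -0.57 and 0.13. No normalisation moved it by -0.58 and 0.18. The median gap to human namesakes kept its sign under both alternatives. The cause of these changes was not tested. No paired analysis was possible because each dose has 1 array. No replicate could be left out, and signal near the mismatch background limits most of these calls.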
